A study of Mus musculus with 24 samples.

Results

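The comparison set Trem2 knockout macrophages given medium from dying hepatocytes against the same cells given the lipid sphingosine-1-phosphate, 4 libraries of each, 8 of the 24 in the series. Macrophages were grown for 7 days from C57BL/6 bone marrow in medium conditioned by L929 fibroblasts, which supplies macrophage growth factor. The knockout (KO) cells were Trem2(-/-), and the wild-type (WT) cells set beside them carried Trem2. The treatment called ACM was serum-free medium from AML12 cells, a mouse hepatocyte line, that palmitate at 800 µM had driven into apoptosis. S1P (sphingosine-1-phosphate) was given at 500 nM, and both lasted 24 hours. Libraries are called by the numbers in their labels: KO ACM 85 to 88, KO S1P 91 to 94, WT ACM 19 to 22 and WT S1P 25 to 28. The sources used here do not give how the allele was made or what medium or vehicle untreated cells had. The design has no group with palmitate alone and none with medium from healthy AML12 cells. The labels name no animal, culture or batch, so p-values reflect library-to-library spread only, which may be technical. Library numbers run in a separate block for each group, so treatment and any difference in handling between blocks cannot be told apart.

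Trem2 is a surface receptor of macrophages and microglia that binds lipids and lipoproteins and signals through the adaptor Tyrobp (DAP12) and the kinase Syk. S1P is a signalling lipid that acts mainly through G protein-coupled receptors, S1pr1 to S1pr5, and dying cells release it. Macrophages that clear dying cells take up their lipids and proteins, and their cholesterol, oxidative stress and inflammatory genes are known to respond to that load.

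The 8 KO libraries held 16.7 to 23.2 M recovered reads (M, 1e6), and 10673 to 10822 genes in each reached an FPKM of 1 (FPKM, a level corrected for gene length and for the fragments mapped in a library). Trem2 (ENSMUSG00000023992, GRCm38 chromosome 17, 48346401 to 48354147) was listed at 36.8, 40.5, 40.2 and 39.4 FPKM in KO ACM and at 38.5, 40.1, 39.1 and 40.7 in KO S1P. WT cells had 90.1 ± 2.73 (SD, n = 4) with ACM and 104 ± 4.7 with S1P, so the RNA was lower in all 8 KO libraries but not absent. One other library, labelled KO untreated 81, had 79.6, against its label, and is left out of every untreated KO value below. Core macrophage genes such as Csf1r, Adgre1 and Cd68 summed to 5421 to 5796 FPKM in KO ACM and 5538 to 5748 in KO S1P, and 15 of the 17 reached 1 in both groups. Of 12 hepatocyte markers, 10 were at 0 in KO ACM and 11 in KO S1P, Alb and Krt18 among them. Their summed FPKM was 0.551 to 1.26 and 0.721 to 0.988, and fibroblast markers summed to at most 0.0966. Granulocyte markers summed to 23.75 to 24.5 in KO ACM and 21.1 to 24.4 in KO S1P, against 5.71 to 8.1 in WT ACM and 7.66 to 11.1 in WT S1P. Monocyte markers summed to 19.6 to 23.55 and 21.5 to 23.8 in KO, and to 25 to 27.6 and 10.75 to 20.5 in WT. Whether cell composition differs between the genotypes was not tested.

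Within each KO treatment the libraries fell into pairs, for which the labels name no batch. Recovered reads of KO ACM 85 and 86 differed by a chi-square per degree of freedom of 2.81 and those of 87 and 88 by 3.44, against 8.32 to 12.2 across these pairs. For KO S1P the values were 3.64 for 91 and 93 and 2.86 for 92 and 94, against 5.23 to 9.33. The share of summed FPKM taken by Gm23935, a very short transcript, followed the same pairs. It was 18.5 and 17.1% in 85 and 86, 18.6 and 15.8% in 91 and 93, 4.38 and 6.23% in 87 and 88, and 9.64 and 8.91% in 92 and 94. Each treatment thus holds 2 libraries of a high and 2 of a low share, and values within libraries of like share are given beside the results below. This grouping, and a fit with the log2 share as a term, were chosen after seeing the data. Every fit treated the libraries as independent, so p-values may be too small if members of a close pair are not.

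Few genes told the treatments apart in knockout cells. Of 10700 genes that reached an FPKM of 1 in 4 or more of the 8 libraries, 26 (0.243%) differed at an adjusted p under 0.05 (limma on log2(FPKM + 1), Benjamini-Hochberg over all genes tested). ACM cells had the higher level of 20 (0.187%) and the lower level of 6 (0.0561%). Their differences were small, 0.197 to 1.37 on the log2 scale with a median of 0.423, and the 4 that reached 1 were 3 small RNAs and a pseudogene. At an unadjusted p under 0.05 there were 1129 genes (10.6%), and in 701 (6.55%) the 4 ACM libraries did not overlap the 4 S1P libraries. All 26 called genes were among the latter. Of the called genes, Mirlet7g, Gm22753, Gm22781 and Gm20234 passed the filter only through the treatment where they were higher. Their calls and their lack of overlap are therefore not independent of the filter. With the share of Gm23935 as a term 29 genes were called, 18 higher and 11 lower with ACM, of which 21 were among the 26. Of the 26, 17 are annotated as protein coding, and names of predicted genes are carried by 9, which may be of either kind.

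WT macrophages gave a different picture under the same treatments. In the fit of the 16 treated libraries, 4810 of 11159 genes (43.1%) differed there between ACM and S1P, 2651 higher and 2159 lower with ACM. The same fit called 34 of 10700 genes in KO (0.318%). The median absolute difference over all genes tested was 0.131 in WT and 0.0437 in KO, and 885 genes against 117 reached 0.5. Spread among libraries was of like size in both genotypes, somewhat larger in WT S1P: the median SD over genes was 0.0668 in KO ACM, 0.0655 in KO S1P, 0.0638 in WT ACM and 0.0917 in WT S1P. WT S1P libraries also fell into pairs. Their chi-square per degree of freedom was 6.81 for 25 and 26 and 3.07 for 27 and 28, against 10.2 to 23.45 across these pairs. The same caution on p-values holds for the WT and interaction counts. The genotype by treatment interaction, which tests whether the difference between treatments itself differs between genotypes, was called for 3427 genes (30.7%). It was higher (KO minus WT) for 1475 and lower for 1952 with FPKM as deposited. Rescaled to TPM, which moves the median of all genes by 0.109, the split was 1626 and 749. The WT split turned likewise, to 1497 and 2346 with TPM.

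**Figure D1:**
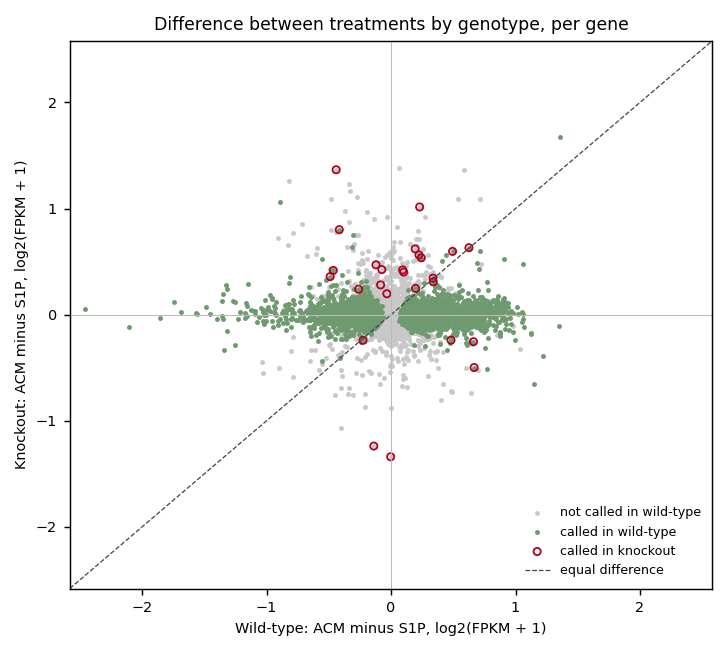
Each point is 1 gene, with the difference ACM minus S1P in log2(FPKM + 1) in wild-type (x axis) and knockout (y axis) macrophages. Genes called in wild-type (green) lie along the horizontal line of no difference in knockout, and the 26 genes called in knockout are ringed.

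Genes were also chosen in a fit of the 8 treated WT libraries alone, added after seeing the data, so that no KO library entered the choice beyond the filter on low values. The 504 genes called higher with ACM there by at least 0.5, and kept in KO, had a median difference of 0.678 in WT and 0.0156 in KO, and their 5th and 95th percentiles in KO were -0.149 and 0.142. Their counterparts, 242 genes higher with S1P by at least 0.5, had medians of -0.654 in WT and 0.018 in KO. Called in KO were 3 of the first set and 0 of the second. Of these, Gm11223 was higher with ACM in KO as well (0.63). Dmwd (-0.26) and F630028O10Rik (-0.50) were lower with ACM in KO, opposite to WT. The direction in KO matched WT for 58.5% of the first set and 40.5% of the second. Across the 10700 genes, which are not independent replicates, Pearson's r between the KO and WT differences was -0.0251.

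Tnf, Cxcl2 and Fos were the inflammatory and immediate early genes among the 26, all higher with ACM. Tnf, the cytokine tumour necrosis factor (chromosome 17, 35199381 to 35202007), had 38.4, 41.5, 41.5 and 39.6 FPKM in KO ACM and 30.3, 30.5, 31.6 and 33.7 in KO S1P. Every ACM library exceeded every S1P library, as the rule for named genes required. The difference was 0.34 ± 0.04 on the log2 scale (SE, n = 4 and 4, limma adjusted p = 0.0157). The WT difference was the same size, 0.34 ± 0.07, and the interaction was 0.01 ± 0.10 (limma adjusted p = 0.964). Untreated KO cells, at 35.2 ± 0.475 (SD, n = 3), lay between the treatments.

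Cxcl2, a chemokine that draws neutrophils (chromosome 5, 90903871 to 90905938), had 15.8, 17.3, 19.9 and 16.4 FPKM with ACM and 12.4, 13.1, 12.2 and 13 with S1P. It rose with ACM relative to S1P by 0.42 ± 0.06 (limma adjusted p = 0.0376). S1P cells were at the untreated level of 12.6 ± 0.642, while WT levels did not pass the test (-0.07 ± 0.08) and the interaction did (0.50 ± 0.11, limma adjusted p = 0.00406). Fos, a subunit of the AP-1 transcription factor that answers acute stimuli (chromosome 12, 85473890 to 85477273), had 11.7, 15.2, 13.8 and 12.2 with ACM and 9.45, 9.71, 8.76 and 8.96 with S1P. Its difference was 0.47 ± 0.07 in KO (limma adjusted p = 0.0419) and -0.12 ± 0.08 in WT, and the KO p was 0.0652 with the share of Gm23935 as a term. Tnf and Cxcl2 were the only members called among 19 NF-kB and inflammatory genes kept, whose median difference was 0.0069, and Fos the only one among 17 immediate early factors, with a median of 0.0455 (all genes tested: -0.0014). At an unadjusted p under 0.05 there were 8 of the 19 and 5 of the 17, beside 10.6% of all genes. Under quantile normalization 3 of the 19 were called and with TPM scaling 0. Neighbours such as Ccl3 (0.18, limma adjusted p = 0.151), Jun (0.05), Junb (0.09) and Ccl2 (0.02) did not pass. These are positive examples: of the 19 NF-kB and inflammatory genes 11 had a positive value, and the lowest was -0.292. Within the libraries of a high and of a low share of Gm23935 the median of the 19 was -0.0581 and 0.0151.

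The largest difference among the named genes was that of Lilrb4a, an inhibitory receptor of the leukocyte immunoglobulin-like family, and its neighbour Lilr4b moved with it. Lilrb4a (chromosome 10, 51490956 to 51496611) had 162, 184, 149 and 168 FPKM with ACM and 109, 98, 119 and 123 with S1P. Lilr4b (chromosome 10, 51480632 to 51486703) had 280, 301, 277 and 287 with ACM and 204, 200, 223 and 240 with S1P. In both, S1P libraries were the ones displaced: untreated KO cells had 166 ± 10.4 and 280 ± 8.37, close to the ACM values. The differences were 0.56 ± 0.08 and 0.40 ± 0.06 in KO (limma adjusted p = 0.0282 for each). WT differences were smaller, 0.22 ± 0.07 for Lilrb4a, which passed there, and 0.10 ± 0.05 for Lilr4b, which did not. The interaction was called for both, at 0.34 and 0.30. These genes are close copies that lie side by side, so reads may have been split between them, and they are not independent of each other.

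Several signalling and trafficking genes completed the set that was higher with ACM. Rgs2, a regulator that shortens G protein signalling from surface receptors, was 39.6 to 43.2 FPKM with ACM and 31.2 to 35.9 with S1P (0.31 ± 0.05), with a WT difference of 0.34 ± 0.05 and an interaction of -0.03 ± 0.07. Dennd1c, a Rab exchange factor, had 0.25 ± 0.04 in KO and 0.20 ± 0.04 in WT, also with no call for the interaction (0.05 ± 0.06). Tagap1, of a family of GTPase-activating proteins whose copies may share reads, had 6.93, 7.38, 7.15 and 7.54 with ACM and 4.68, 5.24, 5.61 and 5.14 with S1P (0.42 ± 0.05). Its WT value was 0.09 ± 0.09 and its interaction just missed the threshold (limma adjusted p = 0.0576). Rsrp1, an arginine- and serine-rich protein, and Ccnl2, a cyclin linked to splicing, were higher by 0.28 ± 0.03 and 0.20 ± 0.03 in KO, and neither passed in WT (-0.08 and -0.03).

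Snx32, a sorting nexin of the endosomal pathway (chromosome 19, 5492235 to 5510538), turned its direction between the genotypes. KO cells had 10.2, 9.74, 9.73 and 9.51 FPKM with ACM and 7.17, 7.59, 7.69 and 7.28 with S1P, a difference of 0.36 ± 0.04 (limma adjusted p = 0.00946). WT cells had 7.17 ± 0.208 with ACM and 10.5 ± 1.23 with S1P, and the interaction was 0.85 ± 0.08 (limma adjusted p = 1.4e-05). Tcirg1, a subunit of the vacuolar proton pump that acidifies lysosomes (chromosome 19, 3896050 to 3907133), did the same. It had 148, 156, 161 and 156 with ACM and 127, 127, 132 and 138 with S1P in KO (0.24 ± 0.03), against -0.26 ± 0.05 in WT and an interaction of 0.50 ± 0.06. None of the 36 lysosomal genes kept in KO, a list that does not hold Tcirg1, was called, and their median difference was 0.0005.

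Genes lower with ACM than with S1P were Trem1, Tgm2 and Dmwd among protein-coding genes with a gene name. Trem1 (chromosome 17, 48232768 to 48246924), an activating receptor of the same gene cluster as Trem2 that amplifies inflammation and also signals through Tyrobp, had 18.8, 18.3, 18.3 and 19.4 FPKM with ACM and 23.6, 21.1, 22.4 and 22.1 with S1P. S1P cells stood above both ACM and untreated KO cells (17.4 ± 1.68), with a difference of -0.24 ± 0.04 (limma adjusted p = 0.0418). WT cells went the other way, 8.14 ± 0.63 with ACM and 5.67 ± 1.5 with S1P, and the interaction was -0.72 ± 0.16. All 9 kept genes for TREM receptors and their partners had a negative value in KO with FPKM as deposited, and Trem1 was the only 1 called. Their median of -0.084 was below 0 under each of the 4 other scalings, but 2 of the 9 were positive with TPM and with a common sum without Gm23935, Trem2 among them (0.026 and 0.0005). Tgm2, a transglutaminase that macrophages use when engulfing dying cells, had 22.7, 23.6, 24 and 22.6 with ACM and 26.6, 28.4, 27.5 and 28.1 with S1P (-0.24 ± 0.03, limma adjusted p = 0.0223). Its WT difference was -0.23 ± 0.07 (interaction -0.02 ± 0.10). Tgm2 was the only 1 of 19 kept genes for uptake of apoptotic cells to be called. At an unadjusted p under 0.05 there were 8 of the 19, beside 10.6% of all genes. Dmwd, a WD-repeat gene, had 16.8 ± 0.815 and 20.2 ± 0.704 in KO (-0.26 ± 0.04), where WT had a difference of 0.66 ± 0.09.

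**Figure D2:**
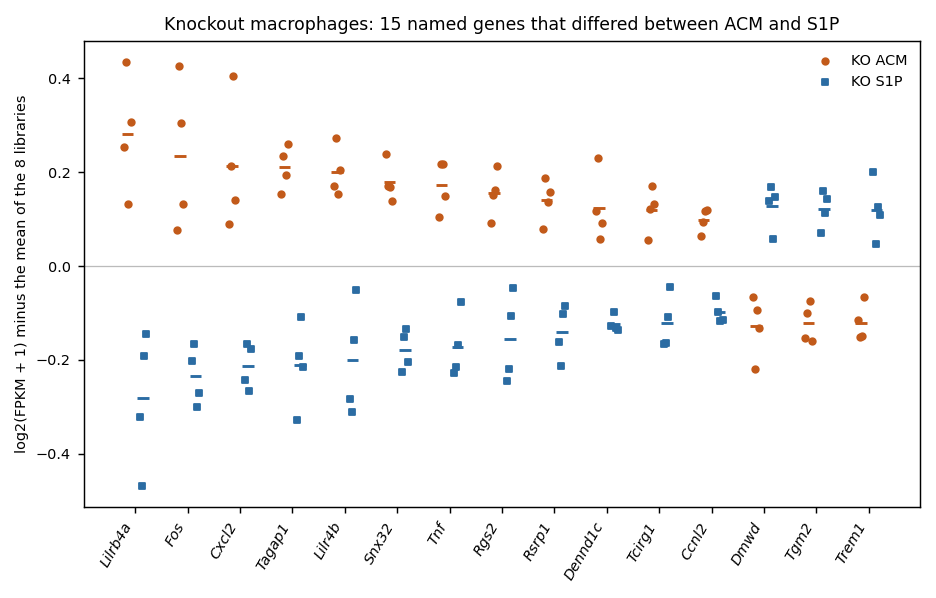
The 15 named genes called between treatments in knockout cells, each library as log2(FPKM + 1) minus the mean of the 8 libraries (points, ACM orange circles, S1P blue squares) and group means (bars). The rule for named genes took only genes whose 4 ACM libraries lie on 1 side of the 4 S1P libraries, so this separation is not a result. Most gaps are narrow.

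Against WT, the 26 called genes fell into 3 groups. In 8 the WT difference was called in the same direction, in 7 it was called in the opposite direction, and in 11 it was not called. The interaction was called for 16. Over all genes tested, 43.1% were called in WT and 30.7% in the interaction. The 26 were chosen by their KO difference, which is part of the interaction, so the count of 16 is not independent of that choice. Tnf, Rgs2, Tgm2 and Dennd1c had called differences of the same direction in both genotypes, with interaction values between -0.03 and 0.05. Snx32, Tcirg1, Trem1 and Dmwd had called differences of opposite direction.

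How far these calls hold rests on single libraries. With each library left out in turn, between 3 and 71 genes were called. Without KO ACM 86 there were 71, 23 of the 26 among them, and without KO S1P 92 or 93 there were 3. Snx32 and the predicted gene Gm47283 were called in all 8 of these fits, Tagap1 in 6 and Tnf in 4, while Trem1 was called in 0. Gm47283, annotated on chromosome Y, had the smallest p in KO (0.42 ± 0.04, limma adjusted p = 0.00814). Its WT difference was -0.46 ± 0.11. The 4 kept sex-linked transcripts, Ddx3y, Eif2s3y, Kdm5d and Uty, were all positive in KO with a median of 0.103, and 0 were called. All 26 kept their direction in every setting tried. Their groups do not overlap, so leaving out 1 library could not have turned it. Fits with other variance models or more libraries use the same group means, so they could not either. In the fit of the 16 treated libraries 10 of the 15 named genes were called, none of them of the 3 that were lower with ACM: the limma adjusted p was 0.619 for Trem1, 0.25 for Tgm2 and 0.383 for Dmwd. Tnf (0.0554) and Tagap1 (0.0606) narrowly missed there. With the share of Gm23935 as a term 11 of the 15 were called, Fos, Rgs2, Dmwd and Trem1 being lost at limma adjusted p of 0.0508 to 0.0652. The median absolute difference of the 26 was 0.432 in the libraries of a high share and 0.434 in those of a low share. The 26 were chosen on these same 8 libraries, so the like sizes are not independent of that choice. With TPM scaling 1 of the 15, Lilrb4a, was called, and with no filter 0 were. In a fit of all 24 libraries, whose spread includes the other groups, 5 were called: Lilrb4a, Lilr4b, Fos, Cxcl2 and Tcirg1.

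**Figure D3:**
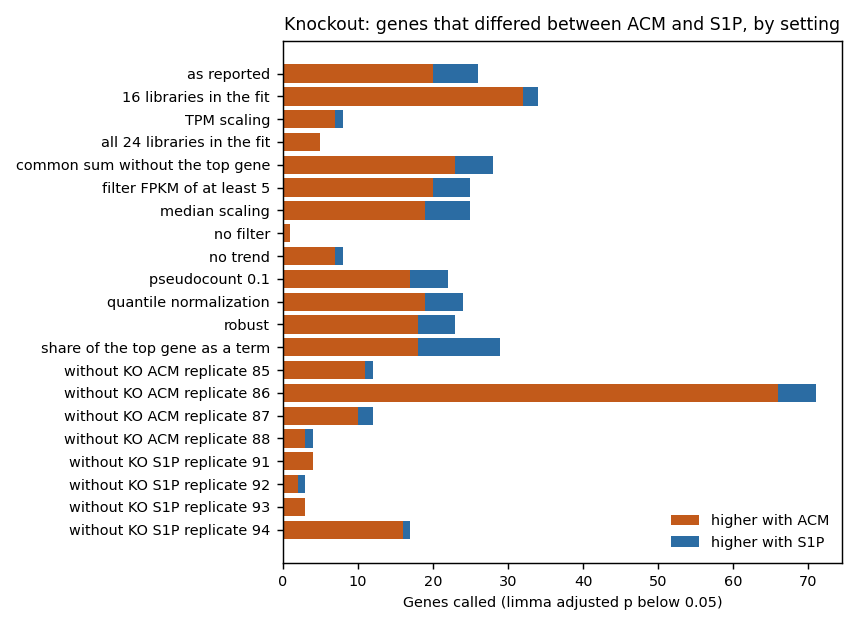
Number of genes called between ACM and S1P in knockout cells under each setting (bars, orange higher with ACM, blue higher with S1P). The count is 26 as reported, 1 with no filter on low values and 71 without KO ACM library 86.

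Larger but less certain differences were found among short and mitochondrial transcripts, groups that were singled out after their values were seen. Nuclear protein-coding genes made up 9840 of the 10700, and 6 of them differed by 0.5 or more. Among 168 small RNAs (snoRNA, scaRNA, snRNA, miRNA and rRNA genes) 64 did, with a median absolute difference of 0.355. Of these, 3 were called on very few reads, and each had passed the filter only through the treatment where it was higher. Mirlet7g, the gene of the let-7g microRNA precursor, had 0 recovered reads in every ACM library and 2, 4, 2 and 4 in the S1P libraries, so both groups lie near the limit of detection and no fold is given. Pseudogenes numbered 362, with 35 at 0.5 or more, 251 positive and 3 called. Their reads can be shared with the parent genes.

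All 13 mitochondrially encoded protein genes had a positive value in KO, from 0.038 for mt-Co1 to 0.97 for mt-Atp8, with a median of 0.132, while their WT median was -0.261. Only mt-Nd4l, a small subunit of respiratory complex I, was called. It had 12.9 ± 1.99 FPKM with ACM and 6.92 ± 0.569 with S1P in KO (0.80 ± 0.10, limma adjusted p = 0.0157), and 4.72 ± 0.919 and 6.58 ± 0.678 in WT. Recovered reads behind the KO values were 72, 63, 76 and 80 with ACM and 39, 41, 47 and 49 with S1P. Summed FPKM of the mitochondrial chromosome overlapped between the groups, at 8746 to 9874 and 8373 to 8979. Nuclear genes of the respiratory chain showed no call among 24 kept. Within the libraries of a high share of Gm23935 all 13 mitochondrial protein genes were positive, with a median of 0.148, and within those of a low share 12 were, with a median of 0.18.

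Gene programs that separated ACM from S1P in WT cells had few or no members called in KO. Counts of list members are read against the 0.243% of all genes called in KO, where the median difference was -0.0014. At so low a share most lists of this length would hold no called member, so a count of 0 is not a result about a list. In WT 23.8% of all genes were called higher with ACM and 19.3% lower. The interaction was called higher for 13.2% and lower for 17.5%.

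Oxidative stress genes, the targets of the transcription factor NRF2, were mostly lower with ACM in WT. There, 24 of 30 were lower with ACM than with S1P, 2 were higher, and the median was -0.67. None of the 28 kept in KO was called, and their median of -0.013 turned to 0.027 with TPM. Nqo1, a quinone-detoxifying enzyme, had 8.31, 8.98, 7.67 and 7.55 FPKM in KO ACM and 6.64, 7.71, 7.36 and 7.84 in KO S1P. The groups overlapped, and the 95% interval of the KO difference ran from -0.02 to 0.26. WT cells had 10.1 ± 1.23 and 36.1 ± 4.3, and the interaction was 1.86 ± 0.13 (limma adjusted p = 9.6e-07). Prdx1, a peroxide scavenger, was 426 ± 8.37 and 430 ± 10.3 in KO (interval -0.07 to 0.05) and 622 ± 11.4 and 1612 ± 274 in WT. Gclm, the modifier subunit of the enzyme that starts glutathione synthesis, was 16 ± 0.316 and 15.9 ± 0.694 in KO, and 18.4 ± 0.552 and 57.6 ± 14.5 in WT.

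Of 26 integrated and ER stress genes, 18 were lower and 3 higher with ACM in WT, with a median of -0.254. In KO their median was 0.0009 and 0 were called. Atf3, a stress-induced transcription factor, was 59.2 ± 2.37 with ACM and 56.9 ± 1.16 with S1P in KO, and 106 ± 1.65 and 187 ± 34.2 in WT. Among single genes the cell cycle inhibitor Cdkn1c had the largest interaction of those named, 2.94 ± 0.20. Its WT levels were 12.3 ± 0.607 and 93.3 ± 24.1, and in KO it stayed near 1 FPKM in all 8 libraries (0.757 to 1.49), too low for the filter. Serpinb9b, a clade B serpin, was 1.27 ± 0.199 and 1.18 ± 0.112 in KO against 6.94 ± 0.482 and 44.3 ± 13.8 in WT.

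Proliferation genes went the other way in WT. All 27 mitosis genes and all 29 DNA replication genes were higher with ACM than with S1P in WT, with medians of 0.89 and 0.67. In KO 0 of each were called, and the medians were 0.072 and 0.028. The mitosis median stayed above 0 under every scaling tried, at 0.068 to 0.114, and 24 of 27 members were positive. At an unadjusted p under 0.05 there were 8 of the 27, beside 10.6% of all genes. Within the libraries of a high and of a low share of Gm23935 the median was 0.0723 and 0.0522. Mki67, the proliferation marker, had 77.2, 77.4, 71.3 and 71.3 in KO ACM and 75.3, 69.5, 70.6 and 71.7 in KO S1P, with overlapping groups. WT had 61.9 ± 2.02 and 33.6 ± 9.81.

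Type I interferon genes were higher with ACM for 33 of 34 in WT, with a median of 0.46. In KO 0 of 34 were called, and the median of -0.032 became 0.0067 with TPM. Irf7, the factor that amplifies the response, was 53.5 ± 4.5 and 56.9 ± 2.34 in KO and 110 ± 2.16 and 67.5 ± 11.8 in WT. Genes of cholesterol synthesis and uptake were higher with ACM for 21 of 24 in WT and called for 0 of 24 in KO (medians 0.35 and 0.028).

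Of 16 genes of resident-type macrophages, 12 were higher and 2 lower with ACM in WT, with a median of 0.624. In KO their median was -0.0501 and 0 were called. Mrc1, the mannose receptor, was 439 ± 21.9 and 435 ± 8.78 in KO and 282 ± 7.48 and 140 ± 42.5 in WT. Lipid-associated macrophage genes, a program known to depend on Trem2 in fat tissue, had 5 higher and 14 lower of 26 in WT. Over all genes those shares were 23.8% and 19.3%. In KO the median of the list was 0.0347 and 0 of 26 were called. Gpnmb, a marker of that program, was 1343 ± 70.6 and 1297 ± 17.9 in KO. No member was called in KO either among 18 LXR and fatty acid synthesis genes, 23 of fatty acid oxidation and lipid droplets, 21 of antigen presentation, 16 matrix proteases and growth factors or 17 coagulation genes and serpins. With the share of Gm23935 as a term, Apoe, an apolipoprotein on the lipid-associated and LXR lists, was called (-0.14, limma adjusted p = 0.0427).

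**Figure D4:**
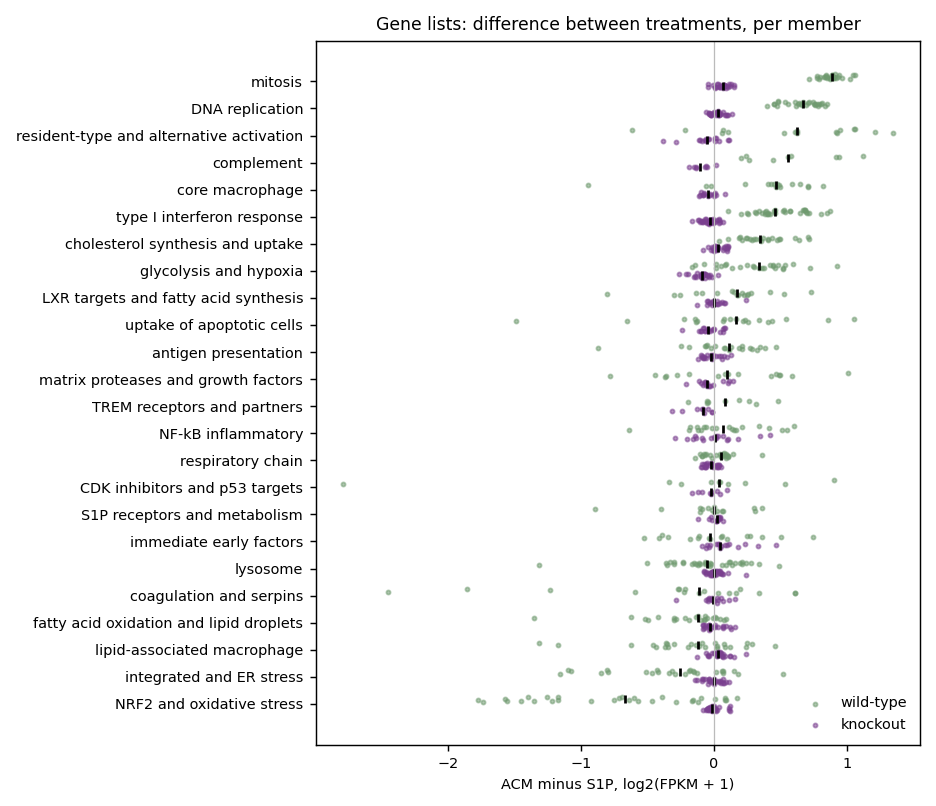
Difference ACM minus S1P in log2(FPKM + 1) for each kept member of 24 gene lists (points) with the list median (black bars), wild-type in green and knockout in purple. Wild-type medians run from -0.67 for NRF2 genes to 0.89 for mitosis genes, and knockout medians stay between -0.102 and 0.072.

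Glycolysis and complement genes leaned in 1 direction in KO, with no member called as reported and 3 complement genes called with the share of Gm23935 as a term. Of 27 glycolysis and hypoxia genes, 26 had a lower value with ACM than with S1P, with a median of -0.086. Of all 10700 genes, 5251 had a positive value. At an unadjusted p under 0.05 there were 16 of the 27, beside 10.6% of all genes. With TPM 23 had a lower value and the median was -0.046, and it was negative under each of the 4 scalings tried. Within the libraries of a high and of a low share of Gm23935 it was -0.0543 and -0.13. Slc16a3, the lactate exporter, had 79.7, 76.1, 71.8 and 78.8 FPKM with ACM and 90.2, 93.7, 81.8 and 89.1 with S1P. The groups did not overlap, yet the difference did not pass (-0.21 ± 0.05, limma adjusted p = 0.147). Pfkl, the liver-type phosphofructokinase, was 31.2 ± 0.731 and 35.9 ± 2.15 (-0.20, limma adjusted p = 0.134). In WT the lean was opposite, with 19 of 27 higher with ACM, and the interaction was called for 21, all lower.

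Complement genes had a KO median of -0.10 over 8 kept, against 0.56 in WT, where 8 of 9 kept were called higher with ACM. The KO median was below 0 under each scaling tried, at -0.106 to -0.0675, and was -0.0809 and -0.115 within the libraries of a high and of a low share of Gm23935. C1qa, a chain of the recognition molecule C1q, had 562, 544, 585 and 556 with ACM and 636, 649, 603 and 670 with S1P in KO. Groups were apart, at -0.19 ± 0.04, but the value did not pass (limma adjusted p = 0.126). C1qb (-0.13, limma adjusted p = 0.158) and C1qc (-0.15, limma adjusted p = 0.243) had values of the same sign. With the share as a term all 3 were called lower with ACM, at limma adjusted p of 0.0462, 0.0317 and 0.0386. In WT the 3 genes were higher with ACM by 0.92 to 1.12.

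S1P receptors themselves differed little. S1pr1, the most abundant in these cells by FPKM, had 36.2, 34.5, 35.2 and 36 with ACM and 39.4, 38.3, 38 and 38.9 with S1P in KO. All S1P libraries were higher, and the difference of -0.12 ± 0.03 did not pass (limma adjusted p = 0.132). WT had 38.2 ± 1.27 with ACM and 29.5 ± 2.69 with S1P, with an interaction of -0.49 ± 0.07. S1pr2 was 11.7 ± 0.12 and 11.4 ± 0.392 in KO. Of 14 kept genes for S1P receptors and metabolism, 0 were called in KO. The Trem2 partners Tyrobp (700 ± 46.3 and 720 ± 22) and Syk (41.4 ± 0.471 and 41.8 ± 0.246) also had overlapping groups in KO.

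Treated KO cells lay as close to untreated KO cells as to each other. The median absolute difference between group means over the 10700 genes was 0.0437 for KO ACM against KO S1P, 0.0483 for KO ACM against untreated and 0.049 for KO S1P against untreated. The same measures in WT were 0.128, 0.0899 and 0.168. These pairs share libraries. Untreated KO levels were 7.15 ± 0.495 for Nqo1, 392 ± 10.6 for Prdx1, 73 ± 1.66 for Mki67, 60.3 ± 4.83 for Irf7 and 466 ± 10.9 for Mrc1 (SD, n = 3). Across genes, log2 values correlated at 0.99091 to 0.99445 between libraries of the same KO group and at 0.99037 to 0.99359 between ACM and S1P libraries.

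**Figure D5:**
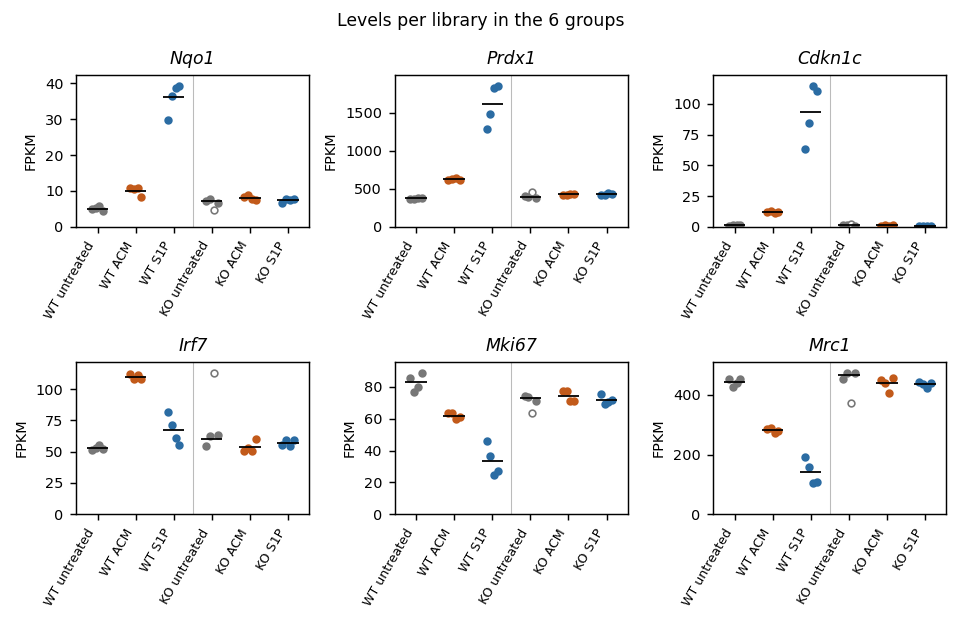
FPKM of 6 genes in every library (points) with group means (bars), wild-type left and knockout right of the line. In wild-type the S1P libraries stand apart for Nqo1, Prdx1 and Cdkn1c, while knockout ACM, S1P and untreated libraries lie together. The open point is the library labelled KO untreated 81, which is not in its group's mean.

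Promoter sequence was read for the programs that separated the treatments in WT but not in KO, to show which known elements their members carry. The 250 bases before each RefSeq start (GRCm38.p6) were searched on both strands for 6 motifs. The interferon-stimulated element, GAAA repeated after 2 bases of any kind, was held by 13 of 23 interferon genes with a window (56.5%) and by 2.82% of 8110 kept genes. The CCAAT box, CCAAT, was held by 20 of 23 mitosis genes (87%) against 37.1%, and the cell cycle element TTTGAA by 7 of 23 (30.4%) against 10.6%. The antioxidant element TGACNNNGC was held by 5 of 23 NRF2 genes (21.7%) against 12.3%. The C/EBP-ATF element TGATGNAA was held by 5 of 24 stress genes (20.8%) against 2.05%, and the sterol element TCACNCCAC by 1 of 17 cholesterol genes (5.88%) against 0.925%. Written 5′ to 3′ in the direction of the gene, with the matched bases in capitals, 4 examples are Gclm (chr3:122245393-122245461, plus strand, antioxidant element), Cxcl10 (chr5:92349063-92349132, minus strand, interferon element), Hmgcs1 (chr13:119690184-119690252, plus strand, sterol element) and Ccnb2 (chr9:70421555-70421671, minus strand, CCAAT box in 3 copies).
Gclm: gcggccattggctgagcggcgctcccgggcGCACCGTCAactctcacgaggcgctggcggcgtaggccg
Cxcl10: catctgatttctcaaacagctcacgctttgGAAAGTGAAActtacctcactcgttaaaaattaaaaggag
Hmgcs1: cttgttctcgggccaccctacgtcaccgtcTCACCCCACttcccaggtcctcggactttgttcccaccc
Ccnb2: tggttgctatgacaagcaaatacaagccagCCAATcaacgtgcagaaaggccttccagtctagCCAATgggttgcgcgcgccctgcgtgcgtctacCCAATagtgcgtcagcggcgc
Each was the member of its list that held the motif and had the largest interaction. A match describes letters in the window and is not shown to be a bound site. The interaction was 1.56 for Gclm, -0.81 for Cxcl10, -0.40 for Hmgcs1 and -1.11 for Ccnb2. KO values of the 4 genes ran from -0.04 to 0.07 and none was called: Cxcl10, an interferon-induced chemokine, was 5.75 ± 0.488 and 5.56 ± 0.442 FPKM. Ccnb2, a mitotic cyclin, was 53.8 ± 3.13 and 55.4 ± 2.12, and Hmgcs1, an early enzyme of cholesterol synthesis, was 23.1 ± 1.16 and 21.9 ± 0.614 with ACM and S1P.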

How the data were processed

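Messenger RNA was sequenced in 24 libraries, and the 8 of KO ACM and KO S1P are reported here beside WT. The values are FPKM deposited by the authors for 54532 genes. The submitters' processing notes list the aligners HISAT2 and STAR, the counter featureCounts, and StringTie, STAR-Fusion, DESeq and edgeR, with mm10 and GRCm38. The sources used here do not give what each did, its version or whether counting used strand. GENCODE M21 named 54495 genes and gave coordinates. Multiplying FPKM by exon length gave whole reads (tolerance 0.05) for 26186 of 27002 genes, which gave the depth. The 12 pairs of KO libraries within a group differed beyond sampling noise (chi-square per degree of freedom 2.81 to 12.2), so none was a copy of another. That does not show that the libraries are independent. They fell into close pairs, described with the results, yet every fit counted each library as 1. If members of a close pair are not independent, the standard errors and p-values may be too small. Leaving out 1 library cannot test this, because the other member of its pair stays in the fit.

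Genes with FPKM of at least 1 in at least 4 libraries were tested on log2(FPKM + 1), pseudocount 1, with limma 3.58.1 in R 4.3.3, with a mean-variance trend. KO was fitted on 8 libraries, and WT and the interaction on 16. The scale understates changes of low genes. Calls are at an adjusted p under 0.05. On simulated data the KO fit recovered 74% of changes of 0.25, 98% of 0.5 and 100% of 1, with 14 false calls, for genes above an FPKM of about 5. The simulated noise was independent between libraries, without close pairs, and 50 genes were changed at each size. Recovery in the real data, which had close pairs and few calls, may therefore be lower. Alternatives were pseudocount 0.1, no filter, a filter at FPKM 5, 4 scalings, other variance models, other sets of libraries and leaving out each library, and, chosen after seeing the data, the share of Gm23935 as a term and a fit of the WT libraries only.

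The gene lists, the rule for named genes and the comparison were chosen with earlier results of these data known. Named were Trem2, up to 15 called genes with the largest rise and fall (group mean of 5 FPKM or more where higher, groups not overlapping, no predicted or mitochondrial genes), up to 5 members of each list by adjusted p, 10 genes by interaction p in each direction, S1P receptors and markers. Some other genes in the text were picked as known examples of their list after their values were seen. The result of 1 gene so named is not reported here.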

Additional observations from a re-analysis of the deposited data

Results flagged for a closer look

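The difference between ACM and S1P itself differed between genotypes, by the interaction term, for 3427 genes. Values are KO minus WT in log2(FPKM + 1), with 4 libraries a group. Positive values among oxidative stress and S1P-raised genes were Nqo1 1.86, Cdkn1c 2.94, Serpinb9b 2.51, Pla2g7 1.40 (a lipid-degrading phospholipase), Gstm1 1.38, Prdx1 1.34, Prdx6 1.19, Ifi27 1.13 and Mmp12 0.93 (a macrophage elastase). In these genes WT levels were higher with S1P, and none of those kept in the KO fit was called there.

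Negative values were found for Ak4 at -1.24, Selenbp1 at -0.82, Slc7a8 at -0.83, Fam162a at -0.74, Pfkl at -0.72, Slc16a3 at -0.69, Sap30 at -0.55, Gypc at -0.54 and Mthfd1l at -0.46. Ak4, Fam162a, Pfkl and Slc16a3 belong to glycolysis or the hypoxia response.

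Among genes called in KO, the interaction was 0.85 for Snx32, 0.59 for Fos, 0.50 for Tcirg1, 0.50 for Cxcl2, 0.36 for Rsrp1, 0.34 for Lilrb4a, 0.30 for Lilr4b, 0.23 for Ccnl2, -0.72 for Trem1 and -0.92 for Dmwd. These genes were chosen by their KO difference, which is part of the interaction.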

How the results depend on the processing

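The count of 26 genes called in KO moved by over 1.5 times with no filter on low values (1), TPM scaling (8), no variance trend (8) and all 24 libraries in the fit (5), and with each KO library left out, from 3 to 71. It was 4 without KO ACM 88, 12 without 85 or 87, 4 without KO S1P 91, 3 without 92 or 93 and 17 without 94. In the other settings it was 22 to 34, but the 34 of the 16-library fit (32 higher, 2 lower) hold 14 of the 26, and the 29 with the share of Gm23935 as a term, chosen after seeing the data, are 18 higher and 11 lower. The causes were not tested. The interaction count stayed between 2375 and 4157. Neither WT nor interaction counts left 1.5 times their values. Of 3296 recomputed values of named genes in KO, 144 lost their call and 5 gained one. The 26 called genes kept their sign in every setting, which was fixed in advance where 1 library was left out, since their groups do not overlap. Genes that were not called could change sign, as Trem2 did (-0.013 as reported, 0.026 with TPM). No paired analysis was possible because the groups share no replicate numbers. Single reads limit the small RNAs, and changes under 0.25 were not simulated.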
